A study of Homo sapiens with 24 samples.

Results

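The 10 genes described here are widely used readouts of YAP and TAZ activity: CCN1, CCN2, ANKRD1, AMOTL2, AJUBA, F3, AXL, LATS2, TGFB2 and MYOF. They were chosen by name from general knowledge of the pathway, but with earlier results of these data known. All 10 were found among the 19775 genes that have a probe set with a single gene symbol. They were represented by 24 of the 54675 probe sets of the array. Older annotations call CCN1 and CCN2 CYR61 and CTGF.

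RNA was measured on 24 Affymetrix arrays from 3 human breast cancer cell lines, to ask whether the lactate transporter MCT1 contributes to glycolytic metabolism. HS578T, SUM149PT and SUM159PT cells were treated for 24 h with AZD3965, an inhibitor of MCT1, or with the solvent DMSO. SUM149PT cells were also infected with lentivirus carrying MCT1 shRNA or a scramble sequence, and both of these groups were selected in puromycin at 2 µg/ml for 5 days. Each of the 8 groups had 3 arrays, and the labels leave it unsaid whether these were separate cultures. The p-values therefore reflect array-to-array spread, which may be technical. The dose of AZD3965, the number of hairpins and the number of clones were not given in the sources used here. HS578T was grown in DMEM with serum, whereas both SUM lines were grown in F12 with serum, insulin, hydrocortisone, EGF and gentamicin, so line and medium cannot be told apart where HS578T differs from the other lines. The lines carried different lineage markers. SUM149PT had high signals for the epithelial genes EPCAM, CDH1 and KRT19, while in HS578T and SUM159PT these 3 genes had mean signals no higher than 54.6 and the mesenchymal gene ZEB1 was high. The marker lists did not all run this way: SUM159PT had signals of 16570 for KRT7, 7470 for KRT18 and 2949 for KRT8, HS578T had 5629 for KRT18, and the mesenchymal genes FN1 and TWIST1 had higher means in SUM149PT than in SUM159PT. Summed group means of markers of leukocytes (3 measured of 5), endothelium (4 of 4) and adipocytes (3 of 3) ranged from 14.54 to 492.1. PTPRC, ADIPOQ and VWF lay near the floor of the array. PECAM1 did not, with group means from 108.0 to 338.3, and FABP4 ranged from 6.14 to 167.6. The highest of these sums came mostly from CD14 in SUM149PT with AZD3965, at 442.1. In bulk RNA, fewer cells of a kind and less RNA per cell cannot be told apart.

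YAP and TAZ are transcriptional co-activators without a DNA-binding domain. They act mainly through the TEAD transcription factors, often together with AP-1. The Hippo kinases, STK3 and STK4 upstream and LATS1 and LATS2 downstream, phosphorylate them and hold them in the cytoplasm, whereas a stiff matrix, cell spreading and low cell density bring them to the nucleus. In breast cancer cells their activity has been linked to mesenchymal and stem-like states. Several targets act back on the pathway: LATS2 is itself an inhibitory kinase, AMOTL2 binds YAP, and AJUBA restrains LATS kinases. Other targets are secreted or sit at the cell surface.

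TEAD factors recognise GGAATG. The 250 bases before the transcription start are given for the 3 members with copies upstream of their first listed start, among them CCN2 and TGFB2, which differed most between the lines, 5′ to 3′ on the strand of the gene, from RefSeq (GRCh38.p14), with each GGAATG, or its reverse complement CATTCC, in capitals. They are CCN2 (chr6:131951373-131951622, minus strand), ANKRD1 (chr10:90921088-90921337, minus strand) and TGFB2 (chr1:218345086-218345335, plus strand).
CCN2: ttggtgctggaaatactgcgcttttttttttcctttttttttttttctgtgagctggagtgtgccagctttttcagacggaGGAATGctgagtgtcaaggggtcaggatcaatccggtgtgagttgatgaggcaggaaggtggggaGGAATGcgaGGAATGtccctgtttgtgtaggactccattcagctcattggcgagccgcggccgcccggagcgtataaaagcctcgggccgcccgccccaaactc
ANKRD1: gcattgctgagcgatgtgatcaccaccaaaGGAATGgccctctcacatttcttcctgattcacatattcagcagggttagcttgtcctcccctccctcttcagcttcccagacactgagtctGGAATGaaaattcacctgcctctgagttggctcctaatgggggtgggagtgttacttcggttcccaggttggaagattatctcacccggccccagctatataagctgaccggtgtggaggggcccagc
TGFB2: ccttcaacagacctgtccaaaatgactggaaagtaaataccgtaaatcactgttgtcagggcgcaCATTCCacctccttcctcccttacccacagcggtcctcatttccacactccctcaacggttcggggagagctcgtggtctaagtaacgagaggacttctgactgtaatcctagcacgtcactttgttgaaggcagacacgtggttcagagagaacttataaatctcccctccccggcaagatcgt
CCN2 held 3 copies, which start at -169, -104 and -95 from the start site, ANKRD1 held 2, at -220 and -128, and TGFB2 held 1 on the opposite strand, at -185. Of 35116 promoter windows of 300 bases in the RefSeq table (250 before to 50 after the start), 14.03% held the motif on either strand, 1.37% held at least 2 copies and 0.13% at least 3. Windows were found for 9 of the 10 members, 12 in all, and 7 windows of 7 different members held GGAATG. AMOTL2, AJUBA and AXL each had it in 1 of their windows, and LATS2 had it past the start. F3, the gene of tissue factor, had no GGAATG but 2 copies of the AP-1 type motif TGANTCA, which 7.71% of all windows held. They are in capitals in its 250 upstream bases (chr1:94541760-94542009, minus strand).
F3: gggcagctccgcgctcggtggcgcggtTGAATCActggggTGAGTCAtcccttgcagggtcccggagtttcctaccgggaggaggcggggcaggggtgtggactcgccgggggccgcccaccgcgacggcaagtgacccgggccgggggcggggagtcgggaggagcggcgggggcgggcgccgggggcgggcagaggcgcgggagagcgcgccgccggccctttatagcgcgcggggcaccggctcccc
ANKRD1 held 1 TGANTCA as well, which does not overlap its GGAATG copies, and MYOF held neither motif. The serum response (CArG) motif was in none of the members' windows and in 1.29% of all. A match describes letters in a window and says nothing of binding in these cells.

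The members were read as MAS5 signals, a linear brightness scale on which every array had been brought to the same trimmed mean. Signals of different probe sets are not comparable with each other, so each gene is described only against itself. Changes are differences of log2(signal + 16), which understates changes of dim genes, and each is given with its standard error (SE) from limma. Errors of signals are standard deviations (SD, n = 3). A gene was called where the limma p, adjusted by Benjamini-Hochberg over 14141 genes, was under 0.05. All 10 members were among those genes, but ANKRD1 would not have been without SUM159PT. No detection calls were used here, and ANKRD1 signals from 1.856 to 41.41 outside SUM159PT lie close to the floor.

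**Figure D1:**
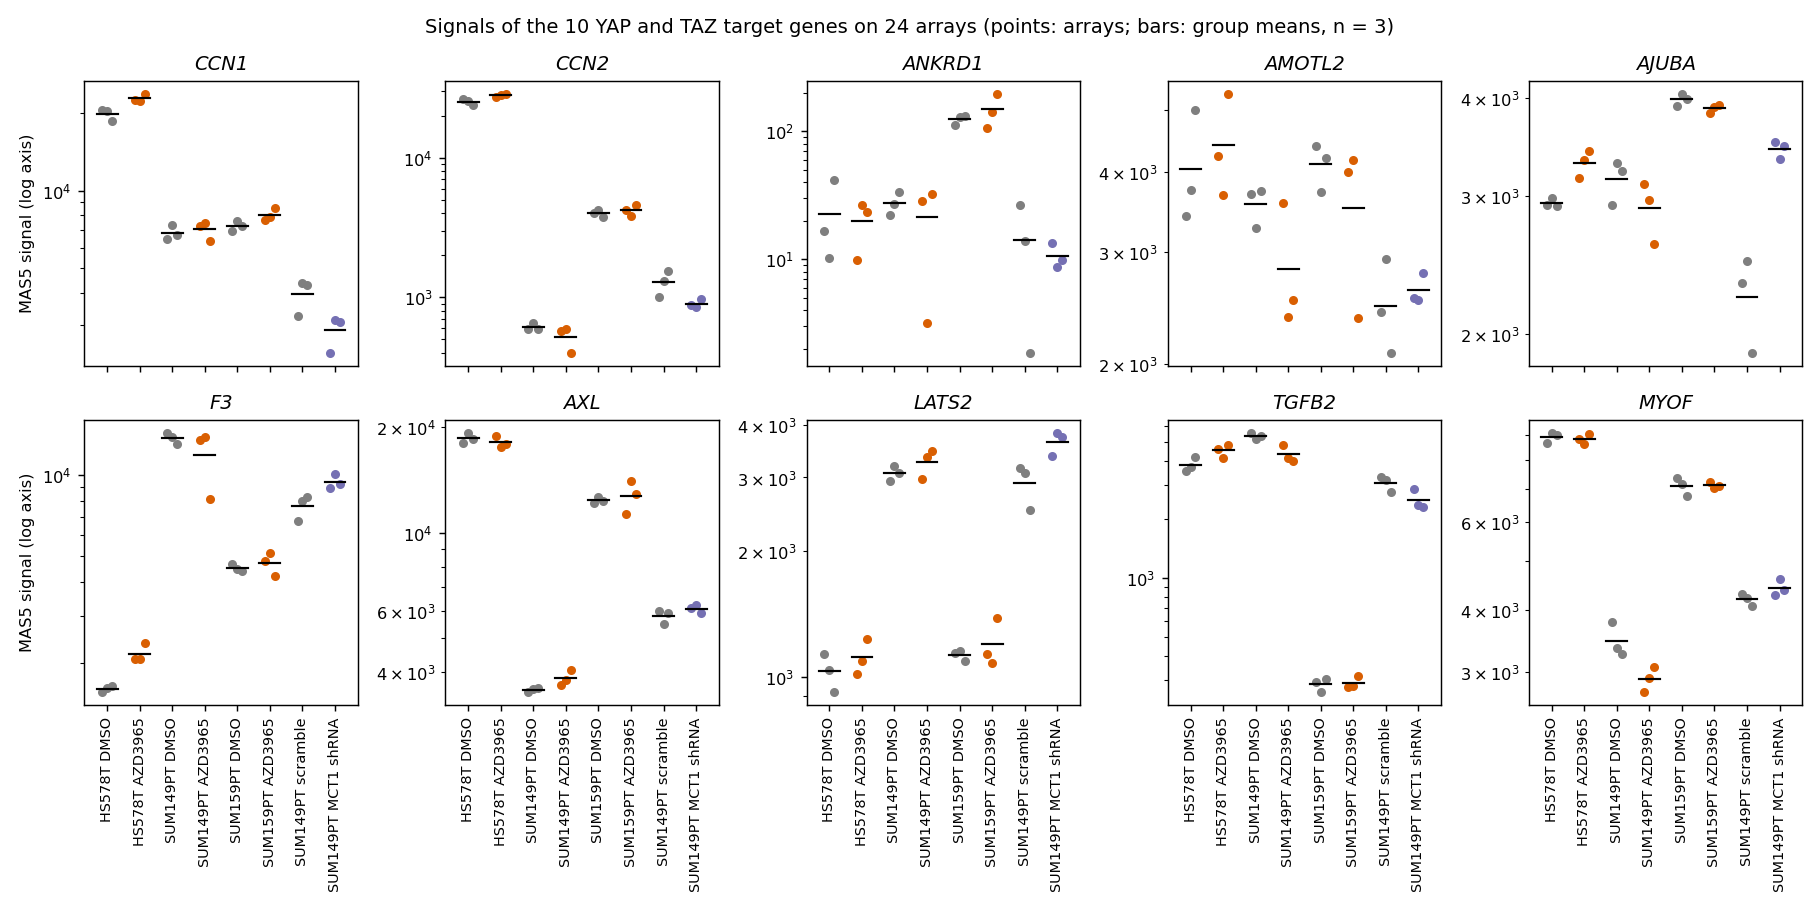
MAS5 signals (log axis, different range in each panel) of the 10 genes on 24 arrays; points are arrays, bars are means of 3 arrays, grey is the control, orange AZD3965 and purple MCT1 shRNA. For CCN2 the lines lay further apart than the treatments: it ran from 591.4 to 650.4 in SUM149PT under DMSO and from 23838 to 26439 in HS578T.

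The largest differences among the members were between the lines under DMSO, where 9 of 10 members differed (limma F test) against a background of 77.0% of all genes tested. Without ANKRD1, which entered the test only through the line where it is high, the count was 8 of 9. The count is therefore close to what most genes did, and the size and direction for each gene carry the information. The median range between the lowest and the highest line was 1.75 log2 units over the members, ANKRD1 included, and 0.85 over all genes. Among the other 9 the middle range was that of LATS2, at 1.56. No line was highest for all members. On the probe set used for each gene, HS578T had the highest mean for CCN1, CCN2, AXL and MYOF. SUM149PT had it for F3, LATS2 and TGFB2, and SUM159PT for ANKRD1, AMOTL2 and AJUBA.

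CCN2, which codes for a secreted protein that modifies the matrix and growth factor signalling, differed most. Its signals were 26439, 25317 and 23838 in HS578T, 4040, 4219 and 3741 in SUM159PT, and 591.4, 650.4 and 597.1 in SUM149PT. The 3 lines were far apart with no overlap: the mean signal in HS578T was 41.1 times that in SUM149PT and 6.3 times that in SUM159PT. The corresponding log2 differences were 5.33 ± 0.13 (limma adjusted p = 1.84e-20) and 2.65 ± 0.13 (limma adjusted p = 1.36e-14). CCN1, its close relative, was also highest in HS578T. CCN1 signals were 20662, 20331 and 18713 in HS578T, 6475, 7349 and 6697 in SUM149PT, and 6963, 7603 and 7254 in SUM159PT. HS578T stood above both other lines, by 1.54 ± 0.11 and 1.45 ± 0.11 log2 units (limma adjusted p = 6.21e-12 and 2.99e-11), while the SUM lines overlapped on this probe set. Their difference was -0.09 ± 0.11 (limma adjusted p = 0.496). The other probe set of CCN1, 210764_s_at, did separate them, with SUM149PT higher than SUM159PT by 0.92 ± 0.13 (limma adjusted p = 1.71e-06 over all probe sets).

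TGFB2, which codes for a secreted TGF-beta ligand, had the widest range after CCN2. Signals were 5546, 5190 and 5338 in SUM149PT, 3554, 3710 and 4190 in HS578T, and 294.1, 261.1 and 303.8 in SUM159PT. SUM159PT was far below the other lines, and SUM149PT was above HS578T with no overlap. SUM149PT exceeded SUM159PT by 4.15 ± 0.10 (limma adjusted p = 1.81e-20), and HS578T was lower than SUM149PT, with a difference of -0.49 ± 0.10 (limma adjusted p = 0.000111). The order of HS578T and SUM149PT depended on the probe set: 209909_s_at gave -0.45 ± 0.15, whereas the dim 209908_s_at gave 1.33 ± 0.27.

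F3, the receptor that starts blood clotting, was highest in SUM149PT. Its signals there were 14340, 13818 and 13043, against 4681, 4482 and 4395 in SUM159PT and 1561, 1607 and 1635 in HS578T. That order was the reverse of the order of CCN2. HS578T minus SUM149PT was -3.09 ± 0.13 (limma adjusted p = 8.49e-16). AXL, a receptor tyrosine kinase for GAS6, had the order of CCN2 again. Signals were 18063, 19263 and 18472 in HS578T, 12152, 12660 and 12289 in SUM159PT, and 3518, 3573 and 3604 in SUM149PT. The lines did not overlap, and HS578T exceeded SUM149PT by 2.38 ± 0.07 (limma adjusted p = 3.36e-19). The other AXL probe set had the same order, with 1.40 ± 0.16 for the same pair. MYOF, a ferlin of membrane repair and trafficking, also had that order. Its signals were 8658, 9071 and 9009 in HS578T, 7374, 7161 and 6763 in SUM159PT, and 3769, 3350 and 3262 in SUM149PT. HS578T exceeded SUM149PT by 1.36 ± 0.06 (limma adjusted p = 2.72e-15) and SUM159PT by 0.33 ± 0.06 (limma adjusted p = 7.72e-05).

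Of the members that act back on the pathway, LATS2 and AJUBA differed between lines and AMOTL2 did not pass the test. LATS2 signals were 2936, 3189 and 3080 in SUM149PT, 1135, 1035 and 919.3 in HS578T, and 1142, 1153 and 1087 in SUM159PT. SUM149PT stood alone: it exceeded SUM159PT by 1.43 ± 0.10 (limma adjusted p = 2.4e-11), and HS578T and SUM159PT did not differ beyond their spread (-0.13 ± 0.10, limma adjusted p = 0.295). AJUBA was highest in SUM159PT, with 3907, 4046 and 3992, against 2921, 3303 and 3225 in SUM149PT and 2919, 2984 and 2913 in HS578T. HS578T and SUM149PT overlapped on 225806_at, the probe set used for the gene, with a difference of -0.10 ± 0.08 (limma adjusted p = 0.306). The order of the lines depended on the probe set. On 1553764_a_at and 225807_at, HS578T was above SUM149PT with no overlap. On 225807_at HS578T had the highest mean, 493.8 ± 32.39 against 439.6 ± 27.32 in SUM159PT. The AJUBA call between lines was lost when the log2 values of its 4 probe sets were averaged (limma adjusted p = 0.184). AMOTL2 was the member whose lines all overlapped. Its means were 4052 ± 837.2 in HS578T, 3568 ± 256.3 in SUM149PT and 4113 ± 347.6 in SUM159PT (limma F test adjusted p = 0.563). ANKRD1, a cofactor best known from heart and skeletal muscle, was measured well above the floor in SUM159PT alone. Its signals were 111.5, 128.5 and 132.7 there, 22.23, 26.98 and 33.31 in SUM149PT, and 16.56, 10.31 and 41.41 in HS578T. SUM159PT was above both other lines with no overlap, and HS578T and SUM149PT overlapped. Because ANKRD1 passed the filter on low values through SUM159PT alone, these levels are a description, with no test.

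**Figure D2:**
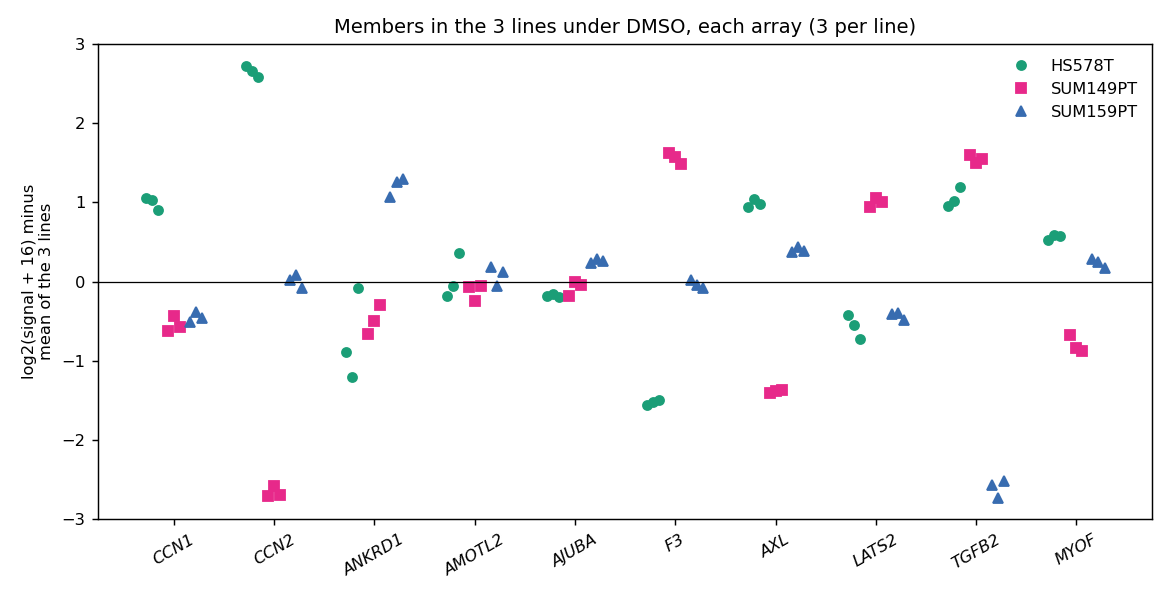
Log2(signal + 16) of each member on the 9 DMSO arrays, relative to the mean of the 3 lines; circles are HS578T, squares SUM149PT and triangles SUM159PT. CCN2, AXL and MYOF place HS578T on top and SUM149PT at the bottom, F3 places them the other way round, and AMOTL2 has overlapping lines (range 0.20).

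Between pairs of lines, 7 members differed for HS578T against SUM149PT (64.2% of all genes), 8 for HS578T against SUM159PT (58.0%) and 8 for SUM149PT against SUM159PT (59.4%). ANKRD1 is 1 of the 8 in both comparisons with SUM159PT. Quantile normalization across arrays changed none of these calls and no sign. Over the 30 differences between lines it moved the log2 value by a median of 0.03 and at most by 0.13, for AXL between HS578T and SUM149PT.

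The genes of the pathway itself were counted from a list of 31 Hippo components, of which 27 passed the filter on low values and 22 differed between the lines (limma F test), a share near the 77.0% of all genes. WWTR1, the gene of TAZ, was 9014 ± 390.7 in HS578T, 3379 ± 181.7 in SUM149PT and 2821 ± 206.4 in SUM159PT. It was higher in HS578T by 1.41 ± 0.08 than in SUM149PT (limma adjusted p = 2.32e-13). YAP1 was lowest in SUM149PT, at 4269 ± 448.9, against 5714 ± 1012 in HS578T and 6429 ± 422.8 in SUM159PT. Of the DNA-binding partners, TEAD2 was highest in HS578T and TEAD4 lowest there. TEAD4 was 559.8 ± 24.43 in HS578T, 1567 ± 57.97 in SUM149PT and 1448 ± 126.1 in SUM159PT. TEAD1 and TEAD3 were not called (limma F test adjusted p = 0.555 and 0.138). WWC1, which codes for the LATS activator KIBRA, had the lowest p of the list, with 2549 ± 12.07 in SUM149PT and 198.5 ± 9.41 in HS578T. Of 25 further genes often reported as YAP and TAZ targets, 21 were named in the annotation used and tested, and 20 differed between the lines, against the same 77.0%. PTPN14 is on both lists. IGFBP3 had the lowest p among them, with 16828 ± 1579 in HS578T against 174.1 ± 37.51 in SUM149PT.

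Over all 24 arrays, the genes whose log2 values followed CCN2 most closely were PTGER4 (Pearson r = 0.996), XXYLT1 (0.989) and FZD7 (0.987). Those closest to CCN1 were SCG5 (0.988), ENC1 (0.985) and RFTN1 (0.982). These correlations are a description: the 24 arrays fall into 3 lines, and any gene with a similar order of lines and a low spread scores high.

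In SUM149PT carrying MCT1 shRNA, the members split. Of 10 members, 5 were called against the scramble control, where 14.9% of all genes were called. AJUBA and LATS2 rose (2 of 10, against 7.22% of all genes), and CCN1, CCN2 and TGFB2 fell (3 of 10, against 7.64%). The changes were modest, from -0.48 to 0.63 log2 units. The members' median was 0.07, against -0.00344 over all genes, so there was no shift of the group one way. Centring each array on its median moved the median of all genes to -0.116 and gave a members' median of -0.04, so the sign of that median depends on scaling. The direction of each called member was the same under quantile normalization and median centring.

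AJUBA had the largest change of the members. Its signals were 3515, 3337 and 3472 with MCT1 shRNA and 2321, 2475 and 1890 with scramble. Every array with MCT1 shRNA was above every scramble array, and the mean was 1.54 times as high. The change was 0.63 ± 0.08 (limma adjusted p = 7.75e-06), and it was called in every alternative run for this comparison. Of its 4 probe sets, 3 rose by 0.63 to 0.83, and the dim 243446_at gave -0.03 ± 0.40. LATS2 signals were 3381, 3833 and 3754 with MCT1 shRNA and 3162, 3083 and 2506 with scramble. The groups did not overlap, and the change was 0.33 ± 0.10 (limma adjusted p = 0.0345). This call was fragile. The other bright LATS2 probe set, 223380_s_at, gave -0.17 ± 0.14, and the mean over the gene's 4 probe sets gave -0.04 (limma adjusted p = 0.874). AMOTL2, the third member that acts back on the pathway, had 2539, 2518 and 2781 against 2410, 2916 and 2080, which overlap (0.09 ± 0.19, limma adjusted p = 0.801).

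Among the secreted members, CCN1 signals were 2334, 3141 and 3089 with MCT1 shRNA and 3259, 4364 and 4292 with scramble. All arrays with MCT1 shRNA were lower, although the highest of them lay close to the lowest scramble array. The change was -0.47 ± 0.11 (limma adjusted p = 0.00334). The other CCN1 probe set did not move in the same way: 210764_s_at had 1625, 1691 and 1525 against 1407, 2208 and 1351, a change of 0.00 ± 0.13. Averaging both probe sets ended the CCN1 call (-0.24, limma adjusted p = 0.131). CCN2, with a single probe set, had 885.5, 847.7 and 964.9 with MCT1 shRNA and 997.0, 1305 and 1533 with scramble. The groups did not overlap, but the scramble arrays were spread widely. The change was -0.48 ± 0.13 (limma adjusted p = 0.0125), and without scramble array 3 it was -0.34 (limma adjusted p = 0.0863). Leaving out MCT1 shRNA array 2 also ended the CCN2 call (limma adjusted p = 0.055). TGFB2 signals were 2871, 2368 and 2322 against 3281, 3173 and 2781. The highest MCT1 shRNA array exceeded the lowest scramble array, so the groups overlapped. The change of -0.29 ± 0.10 was just past the threshold (limma adjusted p = 0.047) and just outside it after quantile normalization (limma adjusted p = 0.0572). The 5 probe sets of TGFB2 ranged from -0.95 ± 0.27 for 209908_s_at to 0.29 ± 0.21 for 220407_s_at.

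The remaining members were not called. F3 had 8975, 10134 and 9249 with MCT1 shRNA and 6743, 7989 and 8273 with scramble. Every MCT1 shRNA array was higher, yet the change of 0.30 ± 0.13 missed the threshold (limma adjusted p = 0.13). AXL gave 0.07 ± 0.07, MYOF 0.08 ± 0.06 and ANKRD1 -0.09 ± 0.36. The second bright MYOF probe set, 211864_s_at, had 1252, 1170 and 1156 with MCT1 shRNA and 984.8, 1057 and 605.0 with scramble. Every MCT1 shRNA array was higher on it, and the lowest value was that of scramble array 3. Counting by arrays alone, on the probe set used for each gene, 5 members had groups that did not overlap, against 29.8% of all genes. AJUBA, LATS2 and F3 were higher, and CCN1 and CCN2 were lower. Of the 23 probe sets of the members that passed the filter, 7 were called, against 10.5% of all probe sets.

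**Figure D3:**
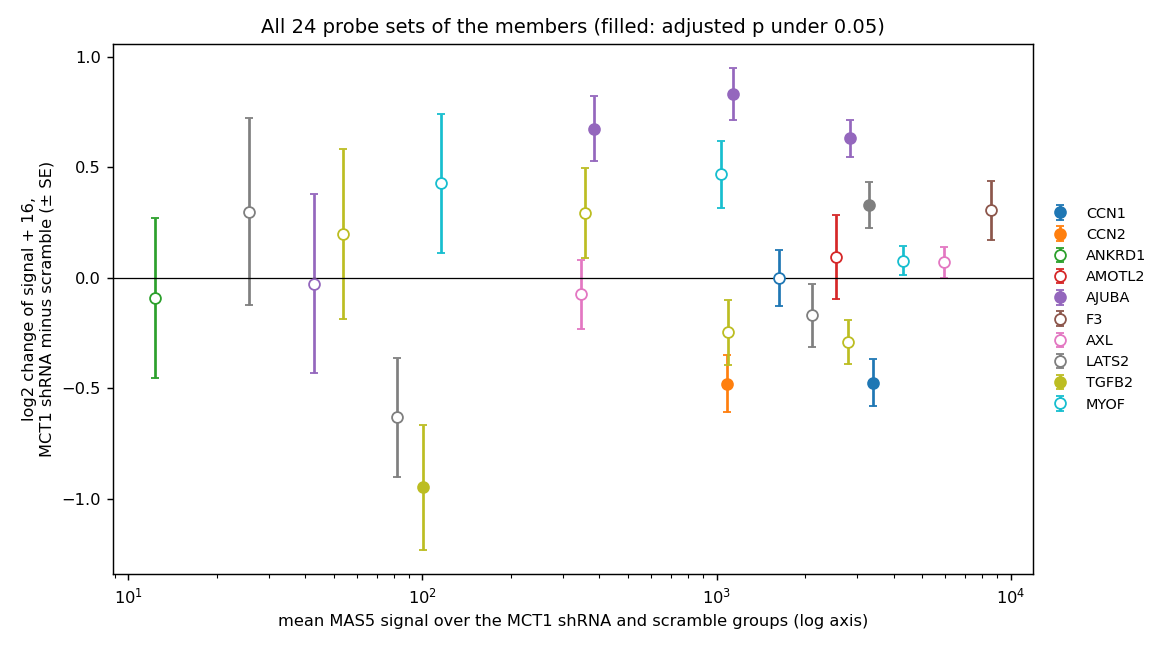
Change of log2(signal + 16) with MCT1 shRNA, ± SE, for all 24 probe sets of the 10 genes against the mean signal of both shRNA groups (log axis); filled points were called over all probe sets. The 3 brighter AJUBA probe sets lie together between 0.63 and 0.83, whereas those of CCN1, LATS2 and TGFB2 disagree within a gene. The MYOF probe sets all had higher means with MCT1 shRNA, but by different amounts.

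Scramble array 3 stood apart from the others by the array's own controls. Its ratio of 3′ to 5′ signal for actin was 53.8, against 1.2 to 2.14 on the other 23 arrays, a measure that rises when the RNA or the labelled cRNA is short. Without that array, 3 members were called (AJUBA, CCN1 and TGFB2), and calls over all genes fell from 2101 to 1736 of 14141. The part of RNA length in the shRNA results was not tested.

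Among the 27 Hippo components tested, 4 were called with MCT1 shRNA, a share close to the 14.9% of all genes, and their median was -0.03. STK4 rose (0.40 ± 0.09, limma adjusted p = 0.00223), and STK3, TEAD4 and TEAD2 fell. STK3, the other upstream kinase, fell by 0.38 on the log2 scale, from 5309 ± 186.8 to 4066 ± 68.27 (limma adjusted p = 0.00682). TEAD4 went from 1509 ± 289.7 to 1135 ± 22.94, a change of -0.39 ± 0.10 (limma adjusted p = 0.00882). The TEAD4 call was lost without scramble array 3 (-0.24, limma adjusted p = 0.0582), as was that of TEAD2 (limma adjusted p = 0.22). The co-activators themselves were not called: YAP1 gave -0.26 ± 0.13 (limma adjusted p = 0.183) and WWTR1 0.04 ± 0.08 (limma adjusted p = 0.819). Averaging probe sets left 2 called Hippo components, both lower. The STK4 call was lost with that average (limma adjusted p = 0.0807) and with median centring (limma adjusted p = 0.134). Of the 21 further target genes, 3 rose and 4 fell, against 7.22% and 7.64% of all genes, with a median of 0.09. Without scramble array 3 the count was 6, and with the mean of probe sets 2 rose and 5 fell. CCDC80, a matrix protein gene, fell most, from 397.4 ± 38.46 to 156.0 ± 15.71 (-1.27 ± 0.11, limma adjusted p = 3.32e-08). IGFBP3, which binds insulin-like growth factors, rose from 133.0 ± 27.15 to 326.0 ± 20.62 (1.21 ± 0.14, limma adjusted p = 1.62e-06). TNS3, a focal adhesion gene, rose by 0.60 ± 0.09, and BIRC5, the survivin gene of dividing cells, fell by 0.59 on the log2 scale. Like the members, this list moved in both directions.

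AZD3965 for 24 h gave no call among the 10 members in any line, where calls over all genes were also rare: 0.304% in HS578T, 0.0283% in SUM149PT and 0.0% in SUM159PT. In HS578T 2 members had an unadjusted limma p under 0.05, in SUM149PT 2 and in SUM159PT 0. The shares of all genes were 8.28%, 16.5% and 6.75%. Over all genes in SUM159PT, 955 had an unadjusted limma p under 0.05 and 0 were called.

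In HS578T, F3 came closest. Its signals were 2062, 2069 and 2369 with AZD3965 and 1561, 1607 and 1635 with DMSO. All treated arrays were higher, and the change was 0.43 ± 0.13 (limma adjusted p = 0.234), with a 95% interval from 0.16 to 0.70. TGFB2 had 4614, 4112 and 4830 against 3554, 3710 and 4190, which overlap (0.24 ± 0.10, limma adjusted p = 0.457). The groups of 4 members did not overlap here, CCN1, CCN2, AJUBA and F3, each higher with AZD3965, against 19.3% of all genes. CCN1 gave 0.20 ± 0.11 and CCN2 0.15 ± 0.13, with 95% intervals from -0.01 to 0.42 and from -0.11 to 0.42. The members' median was 0.14, against -0.02 over all genes. Median centring moved both, to 0.30 and 0.14.

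In SUM149PT the members leaned the other way, with 7 of 10 below 0 and a median of -0.25, against 0.04 over all genes. MYOF signals were 2731, 2907 and 3062 with AZD3965 and 3769, 3350 and 3262 with DMSO. No arrays overlapped, and the change was -0.25 ± 0.06 (limma adjusted p = 0.14). The other MYOF probe sets gave values above 0, with 0.07 ± 0.15 for 211864_s_at and 0.61 ± 0.31 for the dim 217518_at. TGFB2 had 4810, 4116 and 4005 against 5546, 5190 and 5338. All treated arrays were lower, and the change of -0.32 ± 0.10 was not called (limma adjusted p = 0.158). Without AZD3965 array 1 of this line it was -0.40 and past the threshold (limma adjusted p = 0.034). Leaving out that array also raised the calls over all genes from 4 to 649 of 14141. On the probe set used for each gene, groups that did not overlap were those of MYOF, TGFB2 and AXL, the last of them higher, against 21.0% of all genes. LATS2 gave 0.09 ± 0.10 on that basis, but its probe sets disagreed. The other bright LATS2 probe set, 223380_s_at, had 1549, 1031 and 1345 with AZD3965 and 2483, 1590 and 1789 with DMSO. All treated arrays were lower on it. AZD3965 array 3 was the lowest of the 3 treated arrays for CCN1, CCN2, AJUBA, F3 and TGFB2, and the lower means of F3 and CCN2 leaned on it. F3 had 13551, 13849 and 8181 there, against 14340, 13818 and 13043 with DMSO, and its change went from -0.25 ± 0.13 to -0.00 without array 3. For CCN2, with 572.9, 595.4 and 400.1 against 591.4, 650.4 and 597.1, the change went from -0.24 ± 0.13 to -0.07.

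In SUM159PT the changes were small, with a median of 0.04. The lowest was AMOTL2 at -0.27 ± 0.19 and the highest ANKRD1 at 0.20 ± 0.36. CCN1 was the member whose groups did not overlap, with 7705, 7864 and 8579 against 6963, 7603 and 7254 (0.15 ± 0.11, limma adjusted p = 0.787). The background of groups that do not overlap was 12.6% in this line. For CCN2 the 95% interval ran from a 0.88-fold to a 1.26-fold change, and for ANKRD1 from 0.68-fold to 1.93-fold, both on the scale of signal + 16. The pathway lists gave the same count: 0 of 27 Hippo components and 0 of 21 further targets were called in each of the 3 lines (limma), which does not show that they were unaffected. With an unadjusted limma p under 0.05 there were 1, 9 and 1 Hippo components in HS578T, SUM149PT and SUM159PT, and 5, 4 and 2 further targets. Over all genes these shares were 8.28%, 16.5% and 6.75%.

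**Figure D4:**
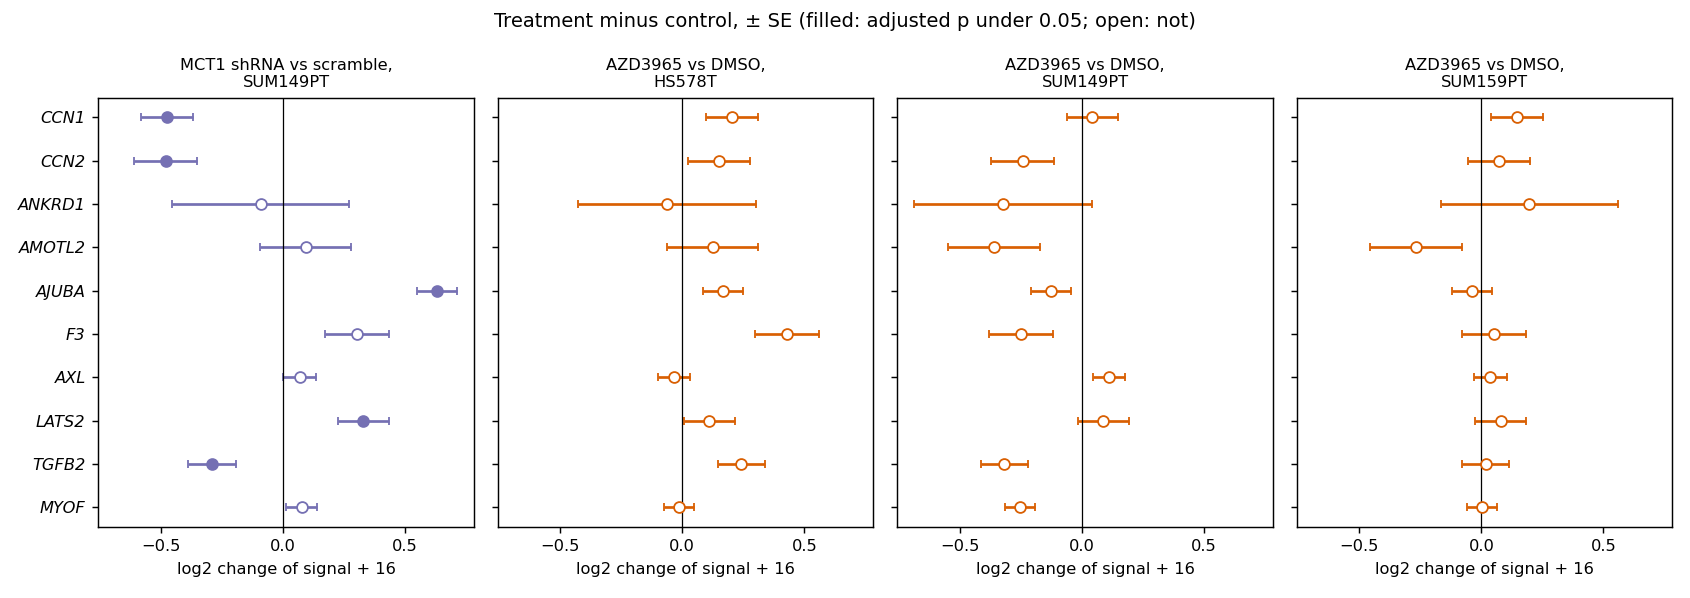
Change of log2(signal + 16), treatment minus control, ± SE for the 10 members in the 4 comparisons; filled points had a limma adjusted p under 0.05. Filled points occur in the MCT1 shRNA panel (AJUBA and LATS2 to the right, CCN1, CCN2 and TGFB2 to the left), and all points of the AZD3965 panels are open.

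The effect of AZD3965 was also compared between lines. No member was called for a difference between the 3 lines (limma F test, against 0.12% of all genes), which does not show equal effects. The lowest adjusted p values of this limma test were 0.226 for TGFB2 and 0.31 for F3. Without adjustment, 4 members had a p under 0.05 in that limma test, as did 1412 of 14141 genes. The largest pairwise difference, HS578T minus SUM149PT, was 0.68 ± 0.19 for F3 (limma adjusted p = 0.125). For TGFB2 the same difference was 0.56 ± 0.14 (limma adjusted p = 0.0901), and it passed the threshold under median centring (limma adjusted p = 0.043).

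Within SUM149PT, the shRNA effect could be set against the inhibitor effect, each relative to its own control. The effects differed for 3 members, against 9.51% of all genes: AJUBA by 0.76 ± 0.12 (limma adjusted p = 0.000158), MYOF by 0.33 ± 0.09 (limma adjusted p = 0.0197) and CCN1 by -0.52 ± 0.15 (limma adjusted p = 0.0314). AJUBA was higher with the shRNA and gave -0.13 ± 0.08 with the inhibitor. MYOF was not called in either comparison alone. The mean of its 3 probe sets ended the call of the difference (0.18, limma adjusted p = 0.614), as did median centring (limma adjusted p = 0.314) and leaving out DMSO array 1 (limma adjusted p = 0.0721) or MCT1 shRNA array 2 (limma adjusted p = 0.0551). The CCN1 difference rested on 1 of its 2 probe sets, since 210764_s_at gave 0.11 ± 0.18. Its call was also lost without any 1 of DMSO arrays 1 and 3, AZD3965 arrays 1 and 2, MCT1 shRNA array 1 and scramble arrays 2 and 3 (limma adjusted p from 0.0526 to 0.104). F3 differed by 0.56 ± 0.19 (limma adjusted p = 0.0643), and after quantile normalization it passed (0.66, limma adjusted p = 0.0198), as it did without AZD3965 array 1 or 2 (limma adjusted p = 0.0253 and 0.0267). For CCN2 the difference was -0.24 ± 0.18 and for TGFB2 0.03 ± 0.14, neither called. These comparisons differ in duration and in viral infection as well as in the means of acting on MCT1, and the parts of these cannot be told apart. The actin ratio of 3′ to 5′ signal was also at least 1.39 on the shRNA arrays and at most 1.37 on the inhibitor arrays, and its part was not tested.

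The controls of the inhibitor and shRNA experiments differed in level for several members. In SUM149PT the scramble mean of CCN2 was 2.09 times the DMSO mean (1278 against 613.0), and that of AXL was 1.62 times (5790 against 3565). CCN1 lay the other way, at 3971 ± 618.4 with scramble and 6840 ± 454.6 with DMSO. The same direction held for F3, with 7668 against 13734, for TGFB2, with 3079 against 5358, and for AJUBA, with 2229 against 3150. The AJUBA signals with MCT1 shRNA, 3337 to 3515, were thus closer to those with DMSO, 2921 to 3303, than the scramble signals were. Infection, selection, time and day of the experiment cannot be told apart here, and no test was made of these differences.

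Quantile normalization changed little in the treatment comparisons. Over the 40 treatment effects of the members it moved the log2 value by a median of 0.02 and at most by 0.14, for ANKRD1 in HS578T. It altered 1 call, that of TGFB2 with MCT1 shRNA, and 3 signs, all of members that were not called.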

How the data were processed

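The authors deposited intensity on a linear scale, made with MAS5 according to the submitters' processing notes, with no version named. The trimmed mean (2% left out at each end) was 500.1 on all 24 arrays, and medians ranged from 49.2 to 67.4. No further scaling was applied. The number of arrays limits the precision.

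Of 54675 probe sets, 41097 had 1 gene symbol in the platform annotation, 1801 several and 11777 none. The probe set with the highest mean log2(signal + 16) stood for each gene. Those at or above the 40th percentile (5.58) were tested, 14141 genes, and 32771 probe sets in a separate fit. One model of 8 group means on all arrays was fitted with limma 3.58.1 in R 4.3.3 (eBayes with trend, 16 residual and 6.52 prior degrees of freedom, two-sided, Benjamini-Hochberg over all genes, threshold 0.05). On simulated arrays it recovered 55% of 1.5-fold and 74% of 2-fold changes in the shRNA comparison. The simulation planted fewer changed genes than the 2101 called in the data. It also gave each gene the same normal noise in every group, so the recovery in the data may differ.

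The members and lists were chosen with earlier results of these data known. Named were all members, and of the pathway lists YAP1, WWTR1, the TEAD genes and the called genes of lowest p. The gene targeted by the shRNA is not reported here, so the knockdown labels were not checked. Alternatives were quantile normalization, median centring, offset, filter, mean of probe sets, only the groups compared, no trend, replicate block and leaving out arrays. Added after seeing the data were quantile normalization without scramble array 3 and the alternatives for single probe sets.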

Additional observations from a re-analysis of the deposited data

Results flagged for a closer look

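The effects of MCT1 shRNA and of AZD3965 in SUM149PT, each against its own control, differed for 3 members by a test of the difference itself (limma, adjusted over all genes). AJUBA differed by 0.7574 log2 units (adjusted p = 0.000158), and all 3 arrays with MCT1 shRNA were above all scramble arrays. MYOF differed by 0.329 (adjusted p = 0.0197), and all 3 arrays with AZD3965 were below all DMSO arrays. CCN1 differed by -0.518 (adjusted p = 0.0314), and all 3 arrays with MCT1 shRNA were below all scramble arrays. With the mean of probe sets none of the 3 passed: AJUBA gave 0.60 (adjusted p = 0.0619), MYOF 0.18 (adjusted p = 0.614) and CCN1 -0.20 (adjusted p = 0.439). MYOF also lost its call without DMSO array 1 (adjusted p = 0.0721) and MCT1 shRNA array 2 (adjusted p = 0.0551), and CCN1 without any 1 of 7 arrays (adjusted p from 0.0526 to 0.104).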

How the results depend on the processing

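With MCT1 shRNA 5 members were called, and AJUBA was called in every alternative. The count was 2 with the mean of probe sets (AJUBA and CCN2) and 1 with only the groups compared (AJUBA). It was 3 without the mean-variance trend, and 3 with quantile normalization and no scramble array 3. Over all genes, calls went from 2101 of 14141 to 1675 of 13168, and to 864, 1991 and 1799 of 14141, in the same order. Leaving out each array in turn gave 2 to 5: 2 without MCT1 shRNA array 2, and 3 without MCT1 shRNA array 3 or scramble array 3. Calls over all genes were 1557, 1547 and 1736 in the same order. LATS2 turned to -0.0433 (limma adjusted p = 0.874) with the mean of probe sets. The shRNA and AZD3965 effects differed for 3 members. This count fell to 1 with median centring, 0 with the mean of probe sets and 1 with only the groups compared. Over all genes, calls for this difference went from 1345 to 521, 854 and 795 in the same order. Leaving out arrays gave 1 to 3 members, with 1 without SUM149PT DMSO array 1, where 874 of all genes were called. The AZD3965 count in SUM149PT was 0 to 1 when arrays were left out, with 1 without AZD3965 array 1, where 649 of all genes were called. The count between lines, 9, and the AZD3965 counts in HS578T and SUM159PT, 0, stayed within 1.5 times the reported count. Uncalled members changed sign in 7 alternatives with MCT1 shRNA, and in 10, 5 and 14 with AZD3965 in HS578T, SUM149PT and SUM159PT. Median centring moved the median of all genes past 0.1 with MCT1 shRNA (-0.116), in HS578T with AZD3965 (0.14), and for HS578T against SUM149PT (-0.119) and SUM159PT (-0.122). Same-numbered arrays were little correlated in the shRNA groups, at 0.02, -0.05 and -0.01 (deviations from the group mean). Between AZD3965 and DMSO the values ran from -0.13 to 0.08. For SUM149PT against SUM159PT under DMSO they were 0.15, 0.07 and 0.23, so a shared replicate number across these lines was not excluded. With a replicate block 4 members were called with MCT1 shRNA (LATS2 lost, limma adjusted p = 0.0847) and 9 between lines. It gave 3 for the difference of effects, where MYOF was lost (limma adjusted p = 0.0787) and F3 gained (limma adjusted p = 0.0433). With this block, calls over all genes were 1691, 10879 and 951 in the same order. ANKRD1 is limited by its dim signal.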
